A study of Mus musculus with 4 samples.

Results

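The granin and prohormone processing enzyme genes are 10 named mouse genes: *Chga*, *Chgb*, *Scg2*, *Scg3*, *Scg5*, *Vgf*, *Pcsk1*, *Pcsk2*, *Cpe* and *Pam*. They were chosen by name and matched by symbol to the Entrez gene identifiers of the deposited tables, and all 10 were found among 15275 genes listed in all 4 libraries and 17667 listed in at least 1. The libraries held polyadenylated RNA of sympathetic ganglia (SG) from thoracic levels T1 to T4, which send fibres to interscapular brown fat, taken from 12-week-old C57BL/6 mice kept for 1 day at 5 °C. There were 2 WT libraries, 1 library labelled TRKC+/- and 1 AdNTF3-Tg library. The label TRKC+/- stands for mice heterozygous for *Ntrk3*, the gene of the neurotrophin-3 receptor. In AdNTF3-Tg mice an *Ntf3* transgene was driven by an adiponectin promoter in adipocytes. Each library was 1 pool of ganglia from several mice, so no genotype had a replicate other than WT, and the labels did not assign either WT library to a mutant. The study describes a WT control for each mutant, but which library is which could not be read from the labels. Both WT libraries therefore served as the control for both mutants.

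Granins are acidic soluble proteins of the dense-core vesicle, the organelle in which sympathetic neurons store neuropeptides together with noradrenaline. They help to form and load the vesicle and are themselves precursors of peptides. Inside the vesicle, prohormone convertases cut precursors after pairs of basic residues, a carboxypeptidase trims the exposed basic residues, and an amidating enzyme converts a C-terminal glycine into the amide that many peptides need.

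All 10 genes were transcribed in every library, and their levels in the mutant libraries stayed close to those in WT. The cutoff was an absolute log2 fold change of 0.5, the size the study used, computed here on FPKM (fragments scaled to transcript length and library size) with 0.1 added. None of the 10 passed it in the library labelled TRKC+/- or in AdNTF3-Tg. The cutoff was passed by 8.56% of all listed genes in the library labelled TRKC+/-, by 11.0% in AdNTF3-Tg and by 13.4% between the WT libraries. The member furthest from the WT mean was *Scg5* at -0.17 in AdNTF3-Tg. With 1 library per mutant, a test has only the spread between the WT libraries to go on. Such a test (edgeR quasi-likelihood) called 0 of the 10 genes in either mutant after adjustment, where it called 0.0142% of 14120 tested genes in the library labelled TRKC+/- and 0.00% in AdNTF3-Tg. At an unadjusted p under 0.05 there were 0 members and 2.02% of genes in the former, and 1 member (*Scg3*) and 5.91% of genes in the latter. Values are given here side by side with exact 95% intervals of the read ratio that cover counting error only. Because the libraries are bulk tissue, fewer neurons and less RNA per neuron cannot be told apart.

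The cAMP response element TGACGTCA, bound by CREB family factors, is a textbook feature of several granin and convertase promoters. It is shown here because it is shared by 3 of the 8 genes with an entry in the RefSeq promoter table (GRCm38.p6), whereas 1.77% of 27025 genes had it in the 250 bases before a start. The element lay 72 to 65 bases before the start in *Chgb* (plus strand, chr2:132781540-132781607), 68 to 61 in *Scg2* (minus strand, chr1:79440057-79440124) and 78 to 71 in *Pcsk1* (plus strand, chr13:75089749-75089816). Each window is printed 5′ to 3′ along the gene with the element in capitals.
Chgb: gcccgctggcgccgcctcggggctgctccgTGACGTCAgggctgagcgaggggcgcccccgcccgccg
Scg2: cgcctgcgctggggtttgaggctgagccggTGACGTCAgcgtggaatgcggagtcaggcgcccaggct
Pcsk1: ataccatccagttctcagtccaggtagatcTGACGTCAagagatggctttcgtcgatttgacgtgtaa
The shorter core TGACG, which every full element contains and which was also searched on both strands, was present in 7 of the 8 members (*Chga*, *Chgb*, *Scg2*, *Scg3*, *Scg5*, *Pcsk1* and *Pcsk2*, but not *Pam*) and in 19.8% of genes. *Vgf* and *Cpe* had no entry in the table. A match of letters is a description of the sequence and not a measured binding site. The 3 genes with the full element had log2 fold changes of 0.09 (*Chgb*), -0.01 (*Scg2*) and -0.09 (*Pcsk1*) in the library labelled TRKC+/-, and of 0.08, 0.02 and 0.02 in AdNTF3-Tg. In both libraries *Scg2* lay between the WT libraries.

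The 10 genes were ordered by their WT mean FPKM, a level per transcript length. *Scg2* stood highest at 658 FPKM, followed by *Scg3* at 467, *Pam* at 350, *Cpe* at 241, *Chga* at 239, *Scg5* at 197, *Chgb* at 194, *Vgf* at 154, *Pcsk1* at 146 and *Pcsk2* at 9.06. *Cpe* overlapped *Chga*, and *Scg5* overlapped *Chgb*, over the 4 libraries, while every other pair of neighbours stayed apart in all 4. *Scg2* ranked 49 and *Scg3* ranked 77 of 15275 genes by mean FPKM. *Pcsk2* ranked 6982, the only member outside the 806 genes whose mean reached 100 FPKM. Together the 10 genes took 0.646% and 0.655% of the reads in the WT libraries, 0.656% in the library labelled TRKC+/- and 0.670% in AdNTF3-Tg.

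**Figure D1:**
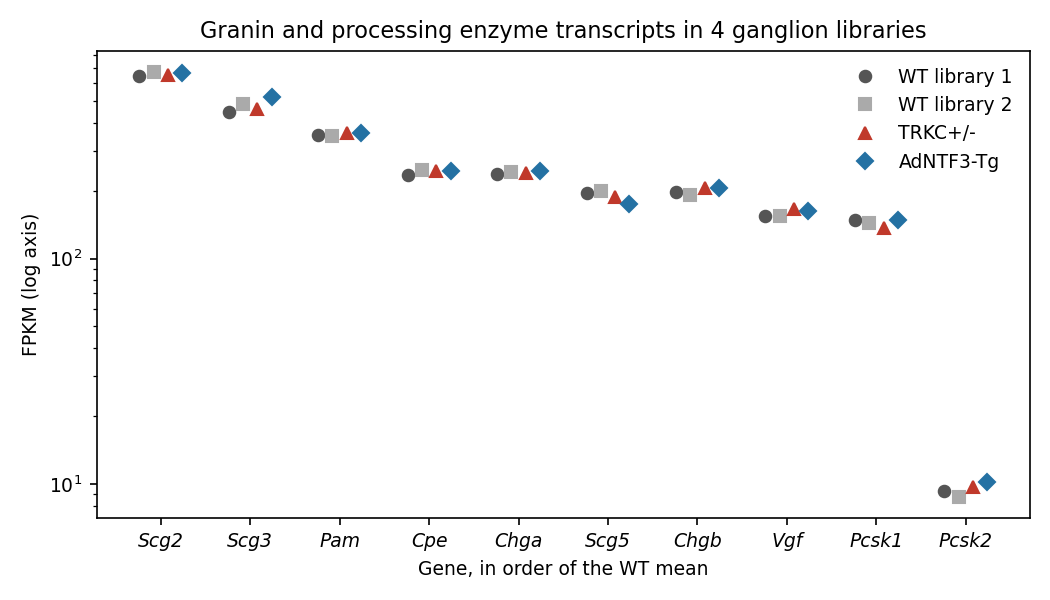
Level of each granin and processing enzyme gene in FPKM (log axis) in WT library 1, WT library 2, the library labelled TRKC+/- and AdNTF3-Tg, 1 point per library, with genes ordered by the WT mean. The 4 points of a gene nearly coincide, and *Pcsk2* at 8.79 to 10.2 FPKM sits far below the other 9 genes.

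Among the granins proper, *Chga* (chromogranin A; Entrez 12652, chr12:103793179-103803237, plus strand, NCBIM37) was the steadiest. It measured 237 and 241 FPKM in WT libraries 1 and 2, 241 in the library labelled TRKC+/- and 244 in AdNTF3-Tg. These values rested on 3796 to 3929 reads per library. *Chgb* (chromogranin B; Entrez 12653, chr2:132607014-132620815, plus strand) measured 197 and 191 FPKM in WT, 206 in the library labelled TRKC+/- and 206 in AdNTF3-Tg. Both mutant libraries lay above both WT libraries, with log2 fold changes of 0.09 and 0.08 and counting intervals of the read ratio from 0.04 to 0.14 and from 0.03 to 0.13. Against WT library 1 alone both intervals of *Chgb* included 0.

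*Scg2* (secretogranin II, the precursor of secretoneurin; Entrez 20254, chr1:79431244-79436665, minus strand) measured 644 and 672 FPKM in WT. The mutant libraries lay between these values, at 655 in the library labelled TRKC+/- and 665 in AdNTF3-Tg. *Scg3* (secretogranin III, which binds cholesterol-rich vesicle membrane and chromogranin A; Entrez 20255, chr9:75491071-75531803, minus strand) varied most of the 10 genes over the libraries. It measured 448 and 486 FPKM in WT, 462 in the library labelled TRKC+/- and 523 in AdNTF3-Tg. AdNTF3-Tg was thus above both WT libraries, at 112% of their mean, a log2 fold change of 0.16 with a counting interval from 0.12 to 0.19. The WT libraries themselves differed by -0.12 (library 1 against 2), so the size of the *Scg3* difference depended on the control: by reads it was 0.21 (interval 0.17 to 0.25) against WT library 1 and 0.10 (0.06 to 0.15) against WT library 2.

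*Vgf* is a precursor of several secreted peptides and is known as a gene induced by nerve growth factor and other neurotrophins (Entrez 381677, chr5:137506165-137509221, plus strand). It measured 154 FPKM in each WT library, 166 in the library labelled TRKC+/- and 162 in AdNTF3-Tg, from 3342, 3386, 3696 and 3554 reads. Both mutant libraries were above WT, with log2 fold changes of 0.11 and 0.08. The interval of the read ratio ran from 0.05 to 0.17 in the library labelled TRKC+/-, where it also excluded 0 against each WT library alone, and from 0.01 to 0.13 in AdNTF3-Tg, where it included 0 against WT library 1 alone.

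*Scg5* (7B2) is the chaperone that the convertase PC2 needs to mature (Entrez 20394, chr2:113616519-113669278, minus strand). It measured 195 and 199 FPKM in WT, 187 in the library labelled TRKC+/- and 175 in AdNTF3-Tg, from 1987, 2041, 1940 and 1789 reads. It was the only member below both WT libraries in both mutants, at 94.9% and 89.1% of the WT mean. In AdNTF3-Tg the log2 read ratio was -0.18, with an interval from -0.26 to -0.10, and it excluded 0 against each WT library alone. *Scg5* is also the shortest member at 1227 bases, and transcript length moved with fold change in AdNTF3-Tg, as described further on.

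**Figure D2:**
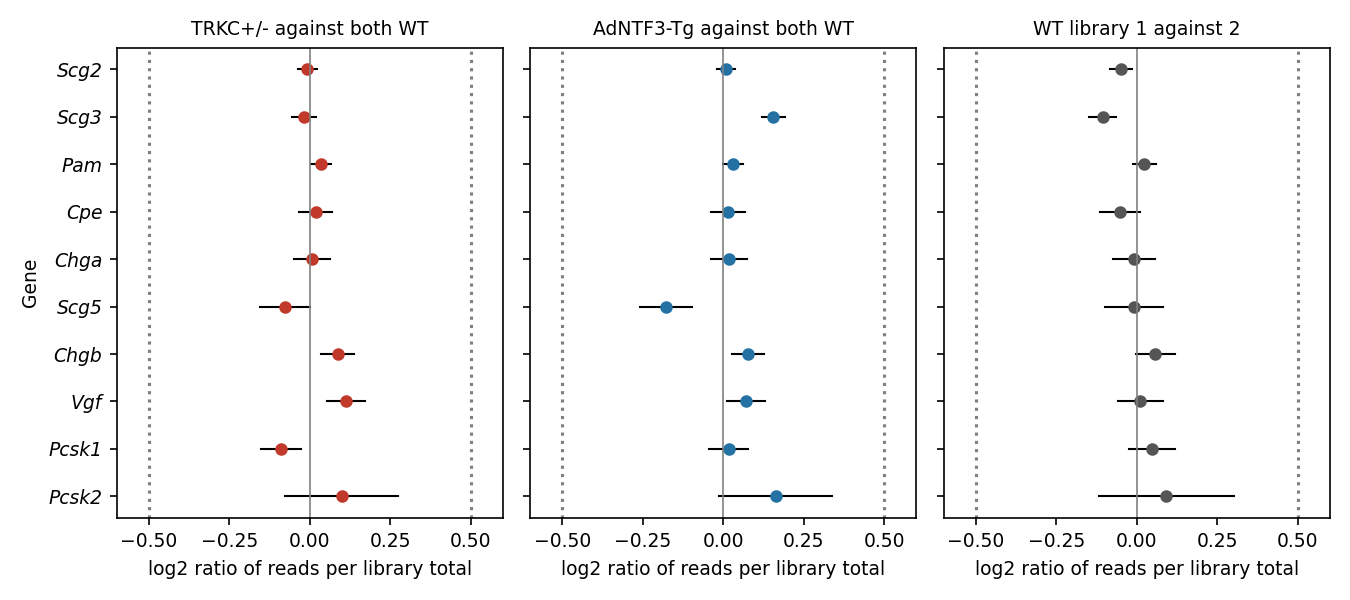
Log2 ratio of reads per library total for each gene (points) with its exact 95% counting interval (bars) for the library labelled TRKC+/- against both WT libraries, AdNTF3-Tg against both WT libraries, and WT library 1 against 2; dotted lines mark the cutoff of 0.5. No gene reached the cutoff, and *Scg3* and *Scg5* in AdNTF3-Tg lay furthest from 0 on either side among the genes whose interval excluded 0.

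Among the convertases, *Pcsk1* (PC1/3, which makes the early cuts in many precursors; Entrez 18548, chr13:75227274-75269946, plus strand) measured 148 and 144 FPKM in WT, 137 in the library labelled TRKC+/- and 148 in AdNTF3-Tg. AdNTF3-Tg was just above both WT libraries, at a log2 fold change of 0.02. The library labelled TRKC+/- was below both, at a log2 fold change of -0.09 with a counting interval from -0.15 to -0.03. Against WT library 2 alone the interval included 0. *Pcsk2* (PC2, which makes later cuts; Entrez 18549, chr2:143371892-143642021, plus strand) measured 9.32 and 8.79 FPKM in WT, 9.70 in the library labelled TRKC+/- and 10.2 in AdNTF3-Tg. Its 366 to 421 reads per library gave wide intervals, which included 0 in both mutants. PC1/3 transcript exceeded PC2 transcript per length by a ratio of 15.9 and 16.4 in WT, 14.1 in the library labelled TRKC+/- and 14.6 in AdNTF3-Tg. The transcript of 7B2 exceeded that of its client PC2 by 20.9, 22.6, 19.2 and 17.3 in the same order.

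The finishing enzymes were steadier. *Cpe* (carboxypeptidase E; Entrez 12876, chr8:67071355-67171837, minus strand) measured 235 and 246 FPKM in WT, 244 in the library labelled TRKC+/- and 245 in AdNTF3-Tg, both within the WT range. *Pam* (peptidylglycine alpha-amidating monooxygenase; Entrez 18484, chr1:99691691-99992223, minus strand) measured 352 and 348 FPKM in WT, 359 in the library labelled TRKC+/- and 359 in AdNTF3-Tg. Both were just above WT, at 0.04 and 0.03 on the log2 scale. *Pam* overlaps the annotated genes *B230216N24Rik* and *Gm3531* on its own strand and *Pcsk2* overlaps *C630020P19Rik* and *Gm12360* on the other, and whether the counting used strand was not given in the sources used here.

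Counted over the members, the library labelled TRKC+/- lay above both WT libraries for 4 genes (*Chgb*, *Vgf*, *Pcsk2* and *Pam*) and below both for 2 (*Scg5* and *Pcsk1*), where 31.9% and 30.8% of all listed genes did so. AdNTF3-Tg lay above both WT libraries for 7 genes and below both for 1, *Scg5*, against 33.7% and 34.0% of all genes. The median log2 fold change of the members was 0.01 in the library labelled TRKC+/- and 0.03 in AdNTF3-Tg. It was -0.01 and 0.04 against WT library 2 alone, and 0.04 and 0.05 against WT library 1 alone. The medians of all genes were 0.00 and -0.00, and those of the 806 genes with at least 100 FPKM were -0.02 and -0.07. Since the comparisons share the WT libraries, a gene's values in the mutants are not independent of each other.

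The counting intervals have to be read against the genes of like level. They excluded 0 for 4 members in the library labelled TRKC+/-, for 4 in AdNTF3-Tg and for 2 between the WT libraries (*Scg2* and *Scg3*), all of them at 100 FPKM or more. Of the 806 genes at that level the intervals excluded 0 for 48.1%, 68.2% and 51.1% in the same comparisons. At such depths counting error is smaller than the spread between libraries, so an interval without 0 is no sign of an effect of genotype. The cutoff of 0.5 was passed by 0.124% of these 806 genes in the library labelled TRKC+/-, by 0.372% in AdNTF3-Tg and by 0.372% between the WT libraries.

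The range of a gene over the 4 libraries, as the log2 difference of the highest and the lowest, was 0.11 in the median of the members and ran from 0.04 for *Chga* to 0.22 for *Scg3*. The median was 0.31 over all genes and 0.16 over the genes with at least 100 FPKM. Most genes are at lower levels than the members, and *Scg3* and *Scg5* exceeded the median of genes of like level.

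**Figure D3:**
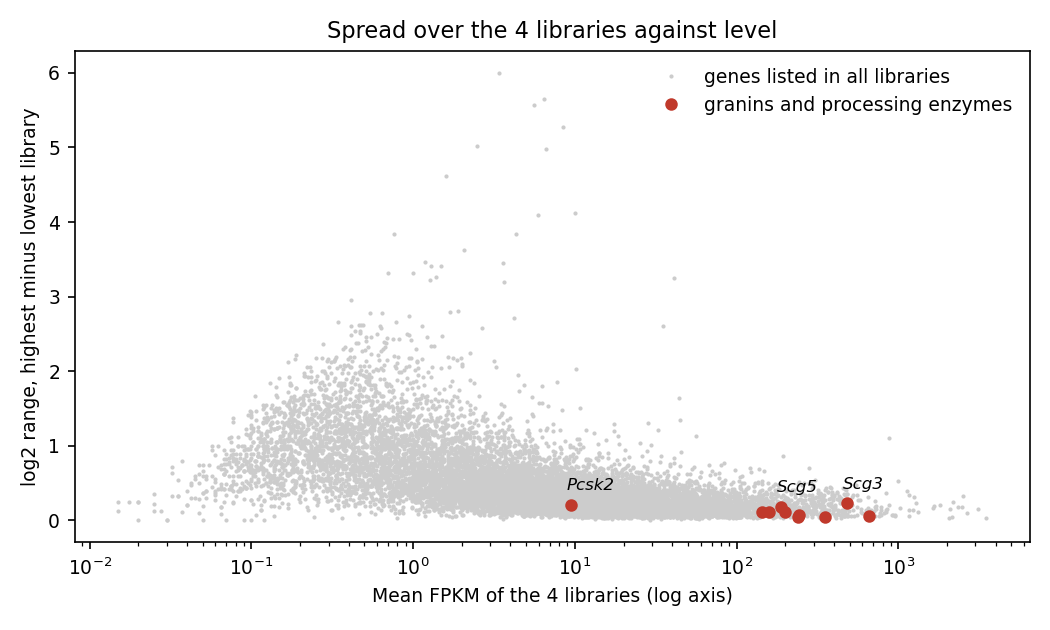
Log2 range over the 4 libraries (highest minus lowest) against the mean FPKM (log axis) for each gene listed in all libraries (grey) and for the 10 granin and processing enzyme genes (red). The members lie between 0.04 and 0.22, with *Scg3* and *Scg5* above the median of 0.16 of genes with at least 100 FPKM. *Pcsk2*, at a mean of 9.49 FPKM, is outside that level, and its range of 0.21 is below the median of 0.31 of all genes.

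Transcript length moved with the fold changes in both mutants and also between the WT libraries. Among genes with at least 100 FPKM, the median log2 fold change in AdNTF3-Tg was -0.22 for the 218 transcripts under 1000 bases, -0.09 for 274 of 1000 to under 2000 bases, -0.02 for 175 of 2000 to under 3000, 0.03 for 71 of 3000 to under 4000 and 0.08 for 68 of 4000 bases and over. In the library labelled TRKC+/- the same medians ran from -0.10 to 0.02. Between WT library 1 and 2 the shortest class stood at 0.10, with 184 of its 218 genes above 0, and the other classes at -0.03 to 0.01. *Scg5*, in the class of 1000 to under 2000 bases, was -0.17 in AdNTF3-Tg and -0.08 once the median of its class was subtracted. *Pcsk2*, of 4766 bases, went from 0.16 to 0.08, although its own level is far below that of the genes behind the class median. *Scg3*, of about 2197 bases, went from 0.16 to 0.18. *Chga*, of 1892 bases, went from 0.03 to 0.12, so its steadiness did not hold relative to transcripts of its length. *Pam*, of 4149 bases, turned from 0.03 to -0.05. *Vgf* in the library labelled TRKC+/- stayed at 0.11. The median of the members in AdNTF3-Tg went from 0.03 to 0.06. The part of length in these differences was not tested, and the classes were chosen after the values had been seen.

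**Figure D4:**
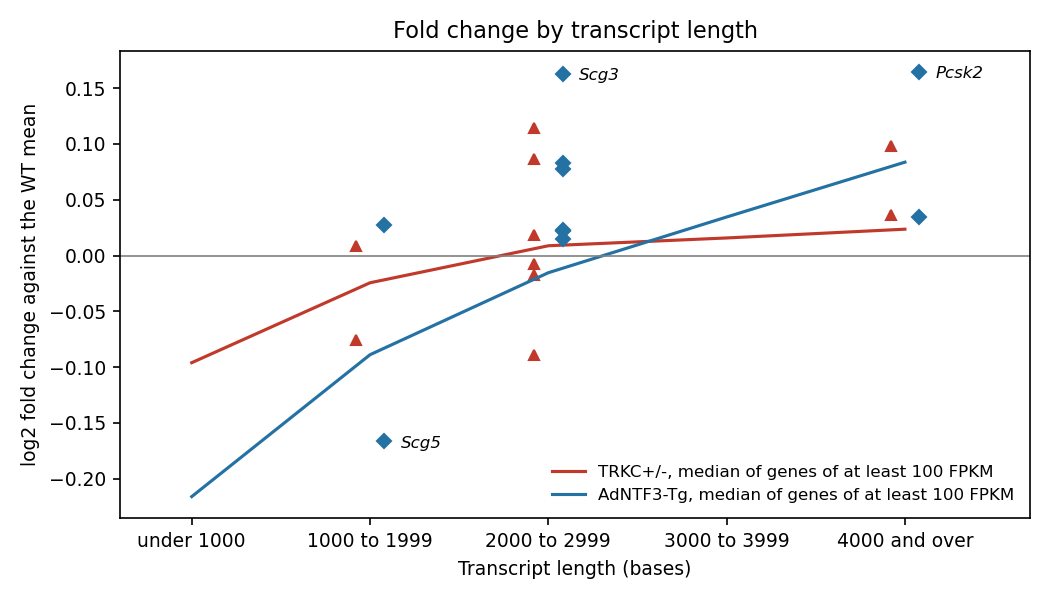
Log2 fold change against the WT mean by transcript length class, with lines for the median of genes with at least 100 FPKM and points for the 10 members, for the library labelled TRKC+/- (red) and AdNTF3-Tg (blue). The AdNTF3-Tg medians climb from -0.22 in the shortest class to 0.08 in the longest, with *Scg5* below the line of its class and *Scg3* and *Pcsk2* above theirs. *Pcsk2* is itself below 100 FPKM.

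The acidity for which granins are known could be read from the gene models. In coding sequences translated from the GENCODE annotation, aspartate and glutamate made up 21.8% of residues in chromogranin A, 23.2% in chromogranin B, 19.1% in secretogranin II, 19.7% in secretogranin III and 20.3% in VGF. The median of 20991 proteins was 11.1%, and the percentiles of these 5 among them ran from 97.5 (secretogranin II) to 99.3 (chromogranin B). 7B2 had 14.6%, and the enzymes had 12.6% to 14.1%. Pairs of adjacent basic residues, the kind of site that convertases cut, numbered 23 in chromogranin B over 677 residues and 16 in VGF over 617, against 9 in secretogranin II, also of 617 residues. Per 100 residues these were 3.40, 2.59 and 1.46, against a median of 1.39 over the proteins. The convertase PC2 itself had 16 pairs, or 2.51 per 100 residues. Overlapping pairs were each counted. High acidity was thus found in 5 of the 10 members, and the number of pairs varied among the granins.

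The other genes of the pathway were followed in 5 lists. Of 14 other convertases and peptide trimming enzymes, 0 passed the cutoff in the library labelled TRKC+/- and 3 passed it upwards in AdNTF3-Tg (*Cpm*, *Cpz* and *Qpct*), with medians of 0.00 and 0.03. The medians were -0.05 and 0.06 against WT library 2 alone and -0.00 and 0.01 against WT library 1 alone. *Cpz* had only 3 to 8 reads per library. *Qpct*, glutaminyl cyclase, which forms the pyroglutamate cap of some peptides, had 64 and 75 reads in WT, 65 in the library labelled TRKC+/- and 108 in AdNTF3-Tg, a log2 fold change of 0.62 with an interval of the read ratio from 0.25 to 1.00. *Cpm*, a membrane carboxypeptidase, had 12 and 10 reads in WT, 14 in the library labelled TRKC+/- and 35 in AdNTF3-Tg. Its log2 fold change there was 1.33 on FPKM plus 0.1, and its log2 read ratio was 1.66 with an interval from 0.85 to 2.50. Both differences were in AdNTF3-Tg, where *Cpe* itself was at 0.02.

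Of 10 vesicle membrane proteins and chaperones, 0 passed the cutoff in either mutant, with medians of 0.03 and 0.04, the former being 0.05 against WT library 1 alone and the latter 0.01 when reads were scaled by edgeR TMM or by DESeq2 size factors. *Dbh*, the vesicle enzyme that makes noradrenaline, measured 2154 and 2100 FPKM in WT, 2170 in the library labelled TRKC+/- and 2152 in AdNTF3-Tg. *Cyb561*, the cytochrome that supplies it with electrons, measured 747 and 758, 774 and 746. *Pcsk1n* encodes proSAAS, a granin-like protein and an inhibitor of PC1/3. It measured 274 and 257 FPKM in WT, 323 in the library labelled TRKC+/- and 262 in AdNTF3-Tg, and its log2 fold change of 0.29 in the library labelled TRKC+/- (interval of the read ratio 0.24 to 0.33) was the highest of the 806 genes with at least 100 FPKM. Against WT library 1 alone it was 0.24 and ranked 2 among them, and against WT library 2 alone it was 0.33 and ranked 5. The ratio of *Pcsk1n* to *Pcsk1* was 1.85 and 1.78 in WT, 2.36 in the library labelled TRKC+/- and 1.77 in AdNTF3-Tg. Inhibitor and enzyme lay on opposite sides of WT in the library labelled TRKC+/- only. *Pcsk1n* was singled out after its values had been seen, and its difference stayed under the cutoff.

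Of 19 genes of dense-core vesicle assembly and release, 1 passed the cutoff downwards in the library labelled TRKC+/- (*Baiap3*) and 0 in AdNTF3-Tg, with medians of 0.02 and 0.10, the latter being 0.15 with edgeR TMM scaling and 0.08 against WT library 1 alone. *Baiap3* had only 1 to 5 reads per library, its interval included 0, and it also passed the cutoff between the WT libraries, at 0.62. *Kif1a*, the motor that carries these vesicles along the axon, measured 247 and 261 FPKM in WT, 253 in the library labelled TRKC+/- and 299 in AdNTF3-Tg. *Syt4*, a synaptotagmin of the vesicle, measured 403 and 537 in WT, 422 and 515. The WT libraries thus differed more in *Syt4* than either mutant did from their mean.

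Of 11 peptide precursor genes listed in all libraries, from a list of 12, the cutoff was passed upwards by 2 (*Pdyn* and *Sst*) and downwards by 1 (*Tac1*) in the library labelled TRKC+/-, and by 1 upwards (*Calca*) and 1 downwards (*Penk*) in AdNTF3-Tg. The list medians were -0.13 and 0.02. They were -0.18 and -0.01 against WT library 2 alone, and -0.02 and -0.03 against WT library 1 alone. The intervals of *Pdyn* and *Penk* included 0. *Tac1*, the substance P precursor, had 78 and 68 reads in WT, 37 in the library labelled TRKC+/- and 103 in AdNTF3-Tg, with a log2 fold change of -0.98 in the former and an interval from -1.56 to -0.47. *Sst*, somatostatin, had 41 and 42 reads in WT, 76 in the library labelled TRKC+/- and 39 in AdNTF3-Tg, a log2 fold change of 0.84 in the former with an interval from 0.38 to 1.32. *Calca*, the calcitonin gene-related peptide precursor, had 35 and 26 reads in WT, 23 in the library labelled TRKC+/- and 52 in AdNTF3-Tg, a log2 fold change of 0.74 in the latter with an interval from 0.20 to 1.32. Against WT library 1 alone the interval of *Calca* ran from -0.10 to 1.21 and included 0. These 3 precursors had far fewer reads than any granin or processing enzyme gene. The most abundant cargo, *Npy*, measured 2733 and 2501 FPKM in WT, 2690 in the library labelled TRKC+/- and 2181 in AdNTF3-Tg. *Gal* measured 926, 846, 906 and 803 in the same order. In AdNTF3-Tg both were below both WT libraries but under the cutoff, at -0.26 and -0.14. Their transcripts, of 561 and 699 bases, belong to the shortest length class, whose median was -0.22 there. *Adcyap1* was at 0.21 in AdNTF3-Tg, between the WT libraries. Of the 6 sensory neuron markers, *Scn10a* had 27 and 25 reads in WT, 10 in the library labelled TRKC+/- and 39 in AdNTF3-Tg, whereas *Trpv1* had 7, 3, 10 and 10 and *Avil* had 5199, 5266, 5159 and 5412. The other 3 markers had at most 9 reads in a library. The part of sensory neuron RNA in the *Tac1* and *Calca* values was not tested.

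Of 10 activity-induced genes, 0 passed the cutoff in the library labelled TRKC+/- and 1 in AdNTF3-Tg (*Fosb*), with medians of -0.02 and 0.04. Both medians changed sign with the control: against WT library 2 alone they were -0.23 and -0.11, and against WT library 1 alone 0.19 and 0.21. The WT libraries differed more, at a median of -0.39 (library 1 against 2): *Fos* had 323 and 510 reads in WT, 423 in the library labelled TRKC+/- and 508 in AdNTF3-Tg, and *Nr4a1* had 773, 905, 792 and 1012. The part of the activity-induced genes in the member values was not tested.

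**Figure D5:**
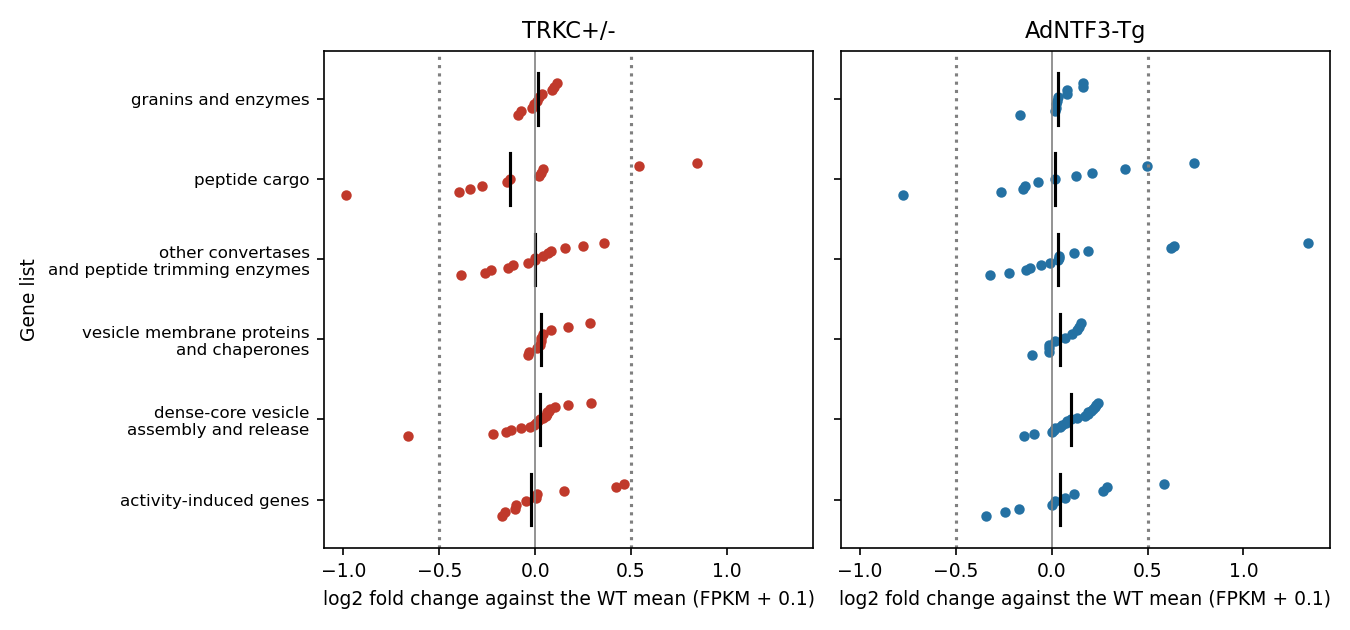
Log2 fold change against the WT mean (FPKM plus 0.1) of each gene in the members and the 5 pathway lists, for the library labelled TRKC+/- and AdNTF3-Tg; bars mark list medians and dotted lines the cutoff of 0.5. All 10 members lie between -0.17 and 0.16, while genes of the peptide cargo list reach beyond the cutoff on both sides in both libraries. Those cargo genes average only 1.07 (*Penk*) to 10.4 FPKM (*Sst*), far below every member except *Pcsk2*.

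The libraries held 8665955 to 8894985 reads on genes. *Ntrk3* had 78 and 83 reads in WT, 91 in the library labelled TRKC+/- and 76 in AdNTF3-Tg, so the count of the targeted gene was not lower in the library labelled TRKC+/-; a count over the whole gene does not show which part an allele lacks. *Ntf3* was listed in the library labelled TRKC+/- alone, with 2 reads, and the transgene is driven in adipocytes. The tissue label was met by its markers: 11 of 11 sympathetic neuron genes were listed, with summed levels of 10463 and 10361 FPKM in WT, 10639 in the library labelled TRKC+/- and 10116 in AdNTF3-Tg. Of the 2 chromaffin cell markers *Pnmt* was not listed, while *Slc18a1* measured 29.7 and 22.5 FPKM in WT, 29.4 in the library labelled TRKC+/- and 25.9 in AdNTF3-Tg. Summed levels in the same order were 85.8, 3.02, 38.4 and 31.0 FPKM for skeletal muscle markers, 366, 333, 200 and 269 for adipocyte, 172, 65.2, 146 and 88.0 for red blood cell, 671, 506, 621 and 610 for satellite glia and 268, 249, 227 and 181 for leukocyte markers. Fibroblast markers summed to 324, 248, 301 and 280 FPKM, myelinating Schwann cell markers to 540 to 575, endothelial markers to 29.5 to 34.8 and sensory neuron markers, nearly all *Avil*, to 196 to 209. The part of these cell type markers in the member values was not tested.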

How the data were processed

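Polyadenylated RNA of 4 SG pools was sequenced. The authors deposited, per library, RSEM expected counts and FPKM by Entrez gene, with the transcript length; the labels' processing notes name RSEM and mm10, whereas the methods name HISAT2 and mm9, and the conflict could not be settled. Of 17667 identifiers, 17619 were named from a gene table. Genes not listed in a library were left out of comparisons. The FPKM of the authors use an effective length (the listed length less a median of 43.3 to 64.5 bases), which weighs most on short genes. Log2 fold changes used FPKM plus 0.1 against the mean of both WT libraries, with the study's cutoff of 0.5 (the added 0.1 was chosen here). Expected counts deposited by the authors, whole numbers for 92.6% to 93.7% of genes and for all 10 members, gave exact 95% Clopper-Pearson intervals of read ratios, which cover counting error only (scipy 1.17.1). The mutants had no replicate library, so member values are described with intervals, and the edgeR test, whose error comes from the WT pair alone, is an alternative. Alternatives used edgeR 4.0.16 and DESeq2 1.42.0 (R 4.3.3) on counts rounded to whole numbers, and the scripts were tested on simulated data.

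Depth was 8665955 (WT library 1), 8847743 (WT library 2), 8894985 (labelled TRKC+/-) and 8806054 (AdNTF3-Tg) reads on genes. Positions came from GENCODE on NCBIM37 (mm9) and promoters from RefSeq on GRCm38.p6. Named genes were the 10 members, *Ntrk3*, *Ntf3* and, of each pathway list, genes past 0.5 against both WT libraries with an interval without 0, or else the 2 genes with most reads. *Pcsk1n*, *Npy*, *Gal*, *Adcyap1*, the sensory and chromaffin markers, and the few genes behind counts past the cutoff were named after their values were seen. Members and lists were chosen with earlier results of these data known.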

Additional observations from a re-analysis of the deposited data

How the results depend on the processing

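The count of members past the cutoff was 0 in both mutants under all alternatives run, and over 10 of them the largest absolute log2 fold change of a member was 0.22. One sign was kept in all 10 by 6 members in the library labelled TRKC+/- and by 7 in AdNTF3-Tg. The median of the members in the library labelled TRKC+/- changed sign with the control, from -0.01 against WT library 2 to 0.04 against WT library 1. Over all genes, the count past the cutoff (1308 in the library labelled TRKC+/- and 1674 in AdNTF3-Tg) became 269 and 404 with a pseudocount of 1 FPKM, 427 and 691 when genes averaging under 1 FPKM were dropped, and 2602 and 2996 with genes not listed taken as 0. The edgeR quasi-likelihood test, which has 1 residual degree of freedom (between the WT libraries) and assumes that the lone mutant library varies as they do, called 2 and 0 of 14120 genes at an adjusted p under 0.05 and 285 and 835 at an unadjusted p under 0.05. It called 0 members, with a lowest edgeR adjusted p of 0.999 in the library labelled TRKC+/- and 0.811 in AdNTF3-Tg. Without adjustment, 0 and 1 members passed in the edgeR test, the latter being *Scg3*. The centring within length classes was chosen after seeing the data. No paired analysis was possible because the mutants have 1 library each and the labels tie neither to a WT library. Depth limits *Baiap3* and *Cpz*, with at most 8 reads in a library, and *Cpm*, with at most 35.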
